A study of Mus musculus with 18 samples.

Results

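The genes described here are 10 immediate early and AP-1 genes: Fos, Fosb, Fosl2, Jun, Junb, Jund, Egr1, Atf3, Ier2 and Klf6. The 10 genes were chosen by name, with earlier results of these data known. They were found by their Ensembl gene ID among the 55416 genes in the deposited tables. Counts of them set beside all genes below are therefore a description and not a test. Immediate early genes are switched on within minutes of a stimulus without new protein synthesis, through kinases that act on factors already bound at their promoters. Several of them encode subunits of AP-1, a dimeric transcription factor in which a Jun protein pairs with another Jun, a Fos or an ATF protein. In the retina and optic nerve these genes are known as early responders to axon injury, ischaemia and raised eye pressure, and they also respond to handling and dissection of tissue.

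The genes were measured by RNA sequencing in 18 libraries of mouse optic nerve head, the region where retinal ganglion cell axons leave the eye, which had been cut out of tissue sections by laser capture microdissection. The libraries fell into 4 groups by genotype and age. Of B6.EDA+/+ mice, 3 libraries came from animals of 22 months and 5 from animals of 12 months. C57BL/6J mice, the controls, gave 5 libraries at 22 months and 5 at 12 months. The EDA+/+ allele is known as one that keeps the EDA exon of fibronectin in every fibronectin transcript, in all tissues. No treatment is named in the labels for any group. The labels do not state an animal for each library, so part of the spread that the p-values measure may be technical.

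The libraries held between 13097498 and 18488733 expected counts, the reads that RSEM assigned to genes. The share of fibronectin isoform expression that carried the EDA exon did not separate the labels: it ran from 0 to 12.6% in EDA-labelled libraries and from 0 to 100% in control-labelled ones at 22 months, and from 0 to 58.5% in EDA-labelled libraries and from 0 to 96.2% in control-labelled ones at 12 months. These shares are isoform estimates from 68 to 1485 fibronectin reads a library, and 1 of the values of 100% rests on 68 reads. Because the shares did not separate the labels, each group is named by its label, as EDA-labelled or control-labelled. A single gene ID, ENSMUSG00000119584, took from 3.26% to 32.85% of a library's expected counts. It took 4.81 to 17.27% in EDA-labelled libraries and 10.72 to 32.85% in control-labelled ones at 22 months, and 3.26 to 16.82% in EDA-labelled libraries and 11.28 to 31.03% in control-labelled ones at 12 months (exact permutation tests, two-sided, p = 0.0714 and p = 0.0873, adjusted p = 0.349 for both over 16 tests of library measures). Xist exceeded Y-linked transcripts in 5 libraries, 1 of the EDA-labelled group at 22 months, 2 of the EDA-labelled group at 12 months and 2 of the control-labelled group at 12 months, so each of these 3 groups drew on more than 1 animal. Markers fitted the tissue: all 7 astrocyte markers, Gfap among them, were detected in each group, with summed levels of 3320 to 19200 TPM. The labelled tissue was not free of its surroundings. Photoreceptor markers summed to 4450 TPM in control-labelled replicate 2 at 22 months, skeletal muscle markers to 270 TPM in EDA-labelled replicate 1 at 22 months, and Gfap made up 3.46% of counts in EDA-labelled replicate 4 at 12 months, against 1.06 to 1.2% in the other 4 libraries of that group. Of the 10 genes, Fos, Jund, Egr1, Fosl2 and Atf3 are also given without some or all of these 3 libraries, and so are the related genes that depend on them most.

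Levels are in TPM (transcripts scaled to a common total), a unit scaled by transcript length, so that genes can be ranked against each other. Jund had the highest median level of the 10 genes and Fosb was nearly undetected. Jund (ENSMUSG00000071076, chromosome 8), an AP-1 subunit that many resting cells express at a steady level, had a median of 46.8 TPM over the 18 libraries and a range of 23.6 to 152 TPM. Egr1 (ENSMUSG00000038418, chromosome 18), a zinc finger factor induced through serum response elements, had a median of 18.7 TPM and a range of 8.04 to 165 TPM. Jun (ENSMUSG00000052684, chromosome 4), the founding Jun subunit and a mediator of the axon injury response in retinal ganglion cells, had a median of 13.4 TPM and a range of 3.3 to 27.7 TPM. Fos (ENSMUSG00000021250, chromosome 12), the textbook marker of recent cell activation, had a median of 11.3 TPM and a range of 1.72 to 55.6 TPM. These 4 genes had reads in all 18 libraries, and their medians stood at the 87.7th percentile for Jund, the 76.4th for Egr1, the 71.4th for Jun and the 68.4th for Fos among the 15118 genes tested.

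Klf6 (ENSMUSG00000000078, chromosome 13), a Krüppel-like factor known to promote axon regrowth in zebrafish retina, had a median of 7.68 TPM. Fosl2 (ENSMUSG00000029135, chromosome 5), the Fra-2 subunit, had a median of 5.49 TPM. Atf3 (ENSMUSG00000026628, chromosome 1), a stress-induced partner of Jun, had a median of 1.82 TPM, and no read was counted for it in 4 libraries. The other 3 genes were scarce. Junb (ENSMUSG00000052837, chromosome 8), a Jun subunit that can oppose Jun, reached at most 2.17 TPM and 37 reads. Ier2 (ENSMUSG00000053560, chromosome 8), a small nuclear early response protein, reached at most 4.28 TPM and 63 reads. Fosb (ENSMUSG00000003545, chromosome 7), whose stable splice form accumulates in neurons after repeated stimulation, had no read in 14 of 18 libraries and at most 15 reads, and it was the 1 gene of the 10 that failed the filter on low counts. A count of 0 allows up to 3 reads, so where Atf3, Junb, Ier2 or Fosb had none, the transcript was not detectable at this depth and is not shown to be absent.

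**Figure D1:**
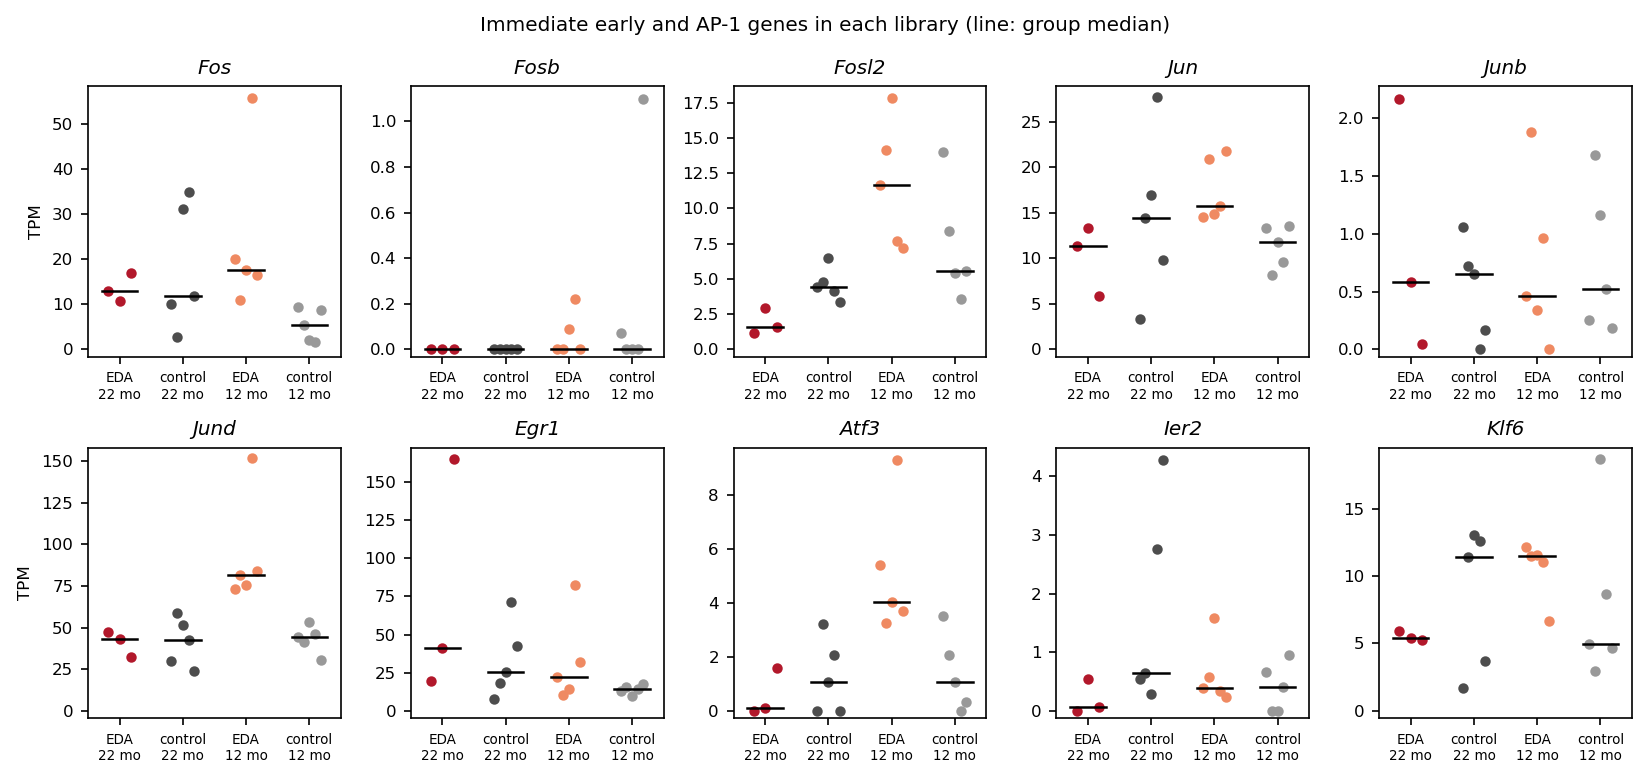
Level of each of the 10 genes (TPM, linear axis from 0) in each library, by label and age. Each point is 1 library and each line a group median; the scales differ between panels. Fos, Jun and Jund lie higher in all EDA-labelled than in all control-labelled libraries at 12 months, and the Egr1 value of 165 TPM belongs to 1 EDA-labelled library at 22 months.

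The order of the levels was alike at its ends in all 4 groups and uncertain in its middle. Jund led each group by median, with 42.96 TPM in EDA-labelled libraries and 42.4 TPM in control-labelled ones at 22 months, and 81.5 TPM in EDA-labelled libraries and 44.5 TPM in control-labelled ones at 12 months. Egr1 followed in each group, and its range overlapped that of Jund in 3 groups; in the control-labelled group at 12 months it did not, at 9.81 to 17.8 TPM for Egr1 and 30.3 to 53.6 TPM for Jund. Fos, Jun, Klf6 and Fosl2 came next with overlapping neighbours in 3 of 4 groups, and in EDA-labelled libraries at 22 months Fosl2 (1.13 to 2.91 TPM) lay below Klf6 (5.25 to 5.92 TPM). Summed over the 10 genes, the level was 100 to 228 TPM in EDA-labelled libraries and 59.3 to 198 TPM in control-labelled ones at 22 months, and 155 to 335 TPM in EDA-labelled libraries and 83.1 to 104 TPM in control-labelled ones at 12 months.

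Jund also dominated its own family. It supplied 60.5 to 90.1% of the summed Jun, Junb and Jund TPM over the 18 libraries, more than 50% in each. On the Fos side the make-up was more mixed. Fosl2 supplied a median of 8.69% of the summed Fos, Fosb and Fosl2 TPM in EDA-labelled libraries and 22.1% in control-labelled ones at 22 months (ranges 8.04 to 21.5% and 10.5 to 63.4%). At 12 months it supplied a median of 36.8% in EDA-labelled libraries and 61.3% in control-labelled ones (ranges 12.1 to 56.4% and 36.5 to 71.5%). The ranges overlapped between labels at both ages, and these shares were not tested.

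**Figure D2:**
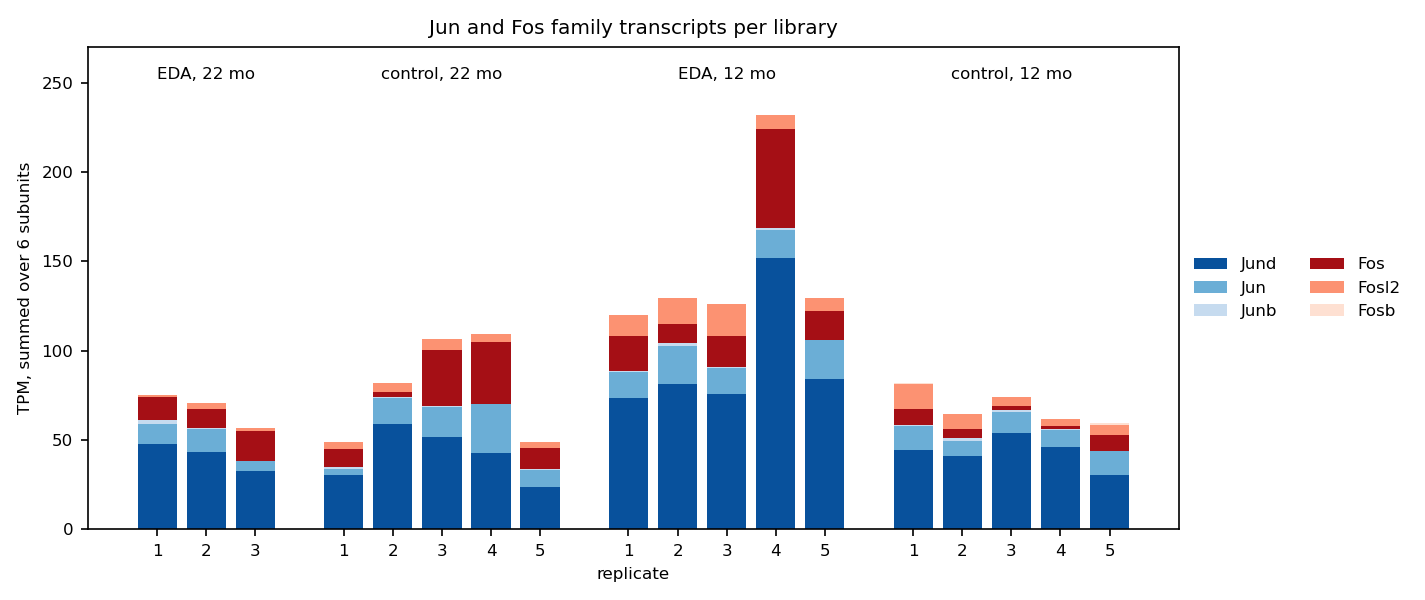
Summed level (TPM) of the 6 Jun and Fos family transcripts in each of the 18 libraries, stacked by gene, with EDA-labelled libraries left of control-labelled ones at each age. Jund makes up 60.5 to 90.1% of the Jun family part of each bar, and EDA-labelled replicate 4 at 12 months has the tallest bar.

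The sequences upstream of Fos, Fosl2 and Atf3 are shown because Fos gave the smallest p between labels and Fosl2 the smallest between ages, and Atf3 did not overlap between ages in EDA-labelled libraries. Each is the 250 bases before the RefSeq transcription start in GRCm38.p6, written 5′ to 3′ on the strand of the gene: chr12:85473640-85473889 (plus strand) for Fos, chr5:32136222-32136471 (plus strand) for Fosl2 and chr1:191183334-191183583 (minus strand) for Atf3. Capitals mark TGACG, the core of the cyclic AMP response element that CREB and ATF proteins bind, TATAAA and the GC box GGGCGG, each read on both strands.
Fos: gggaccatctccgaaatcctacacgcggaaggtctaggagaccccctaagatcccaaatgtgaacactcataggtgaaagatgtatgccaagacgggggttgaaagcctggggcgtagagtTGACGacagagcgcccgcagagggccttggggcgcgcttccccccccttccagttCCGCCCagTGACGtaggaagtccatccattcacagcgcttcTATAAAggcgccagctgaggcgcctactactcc
Fosl2: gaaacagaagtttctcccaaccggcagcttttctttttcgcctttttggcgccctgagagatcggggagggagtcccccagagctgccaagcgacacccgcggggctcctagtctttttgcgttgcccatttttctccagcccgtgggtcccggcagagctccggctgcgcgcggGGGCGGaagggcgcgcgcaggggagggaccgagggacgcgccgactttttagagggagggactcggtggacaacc
Atf3: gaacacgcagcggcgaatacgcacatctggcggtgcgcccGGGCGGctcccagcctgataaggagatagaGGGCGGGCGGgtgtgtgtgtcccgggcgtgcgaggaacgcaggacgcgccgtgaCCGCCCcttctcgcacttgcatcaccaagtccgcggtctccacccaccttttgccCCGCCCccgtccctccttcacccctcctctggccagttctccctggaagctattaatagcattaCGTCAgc
RefSeq windows of this kind were at hand for 8 of the 10 genes, all but Egr1 and Ier2. The RefSeq start of Jund lies upstream of the gene in GENCODE, so its window may not be its promoter. The Fos window holds TGACG at -129 to -125 and at -66 to -62, a GC box read on the opposite strand at -74 to -69 and TATAAA at -33 to -28, counted back from the start. The Atf3 window holds TGACG on the opposite strand at -7 to -3 and 5 GC boxes, of which those at -180 to -175 and -176 to -171 overlap. The Fosl2 window holds 1 GC box, at -75 to -70. Over 32851 RefSeq windows of the same length, 17.8% hold TGACG, 12.4% TATAAA and 32.7% GGGCGG. The full element TGACGTCA, which contains TGACG, is in 1.55% of windows, the AP-1 site TGACTCA in 4.46% and the CArG box bound by serum response factor in 1.47%. None of the 8 windows holds any of these 3. The windows reach only 250 bases upstream, so sites further away were not searched and these genes are not shown to lack them. A match of letters is a description and not a binding site.

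At 12 months Fos and Jund were higher in EDA-labelled libraries than in control-labelled ones in all 5 against all 5, but no gene passed the adjusted threshold. The comparison asks whether the EDA label goes with a changed state of the optic nerve head before old age. Differences were fitted for 15118 genes, 9 of the 10 among them, with edgeR's quasi-likelihood test on the expected counts, and p-values were adjusted by Benjamini and Hochberg over all genes with a threshold of 0.05. By this rule 0 genes were called, which is 0% of those tested, so none of the 9 was called in any comparison below; 689 genes, or 4.56%, had an unadjusted p under 0.05 in this one, Fos and Jund among them. DESeq2 called 22 genes and limma voom 2, and neither called any of the 9.

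Fos was measured at 20.0, 10.9, 17.6, 55.6 and 16.4 TPM in EDA-labelled libraries, and at 9.44, 5.29, 2.15, 1.72 and 8.64 TPM in control-labelled libraries. The lowest EDA-labelled library lay above the highest control-labelled one, and replicate 4 of the EDA-labelled group stood far above the others. The fitted difference was 2.08 ± 0.67 (log2, SE), a 4.22-fold higher level in EDA-labelled libraries, with an unadjusted p of 0.00533 and an adjusted p of 1 by edgeR. Jund was measured at 73.5, 81.5, 75.5, 152 and 84.1 TPM in EDA-labelled libraries, and at 44.5, 41.1, 53.6, 46.1 and 30.3 TPM in control-labelled ones. Here too the groups did not overlap, and replicate 4 of the EDA-labelled group was again the highest. The fitted difference of Jund was 0.90 ± 0.32, or 1.86-fold (unadjusted p = 0.0104, adjusted p = 1, edgeR).

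Without EDA-labelled replicate 4, the library with the high Gfap share, the difference was 1.52 for Fos and 0.63 for Jund (unadjusted p = 0.0283 and 0.0354, adjusted p = 1 for both, edgeR). With the ENSMUSG00000119584 share as covariate it was 1.42 for Fos and 0.86 for Jund (unadjusted p = 0.124 and 0.0257, adjusted p = 1 and 0.906, edgeR). The 7 astrocyte markers summed to 6990 to 19200 TPM in EDA-labelled libraries and to 4000 to 7530 TPM in control-labelled ones at 12 months, with none of the 7 at 0 throughout a group. Most of the sum was Gfap, with a median of 6800 TPM in EDA-labelled libraries and 4620 TPM in control-labelled ones. The markers did not move as one: Aqp4 had medians of 57.9 TPM in EDA-labelled libraries and 91.6 TPM in control-labelled ones, Aldoc 188 and 239 TPM, and S100b 40.6 and 46.7 TPM, in the same order. Medians of Slc1a3 (507 and 447 TPM), Slc1a2 (46.4 and 44.7 TPM) and Gja1 (212 and 203 TPM) were higher in EDA-labelled libraries, as was that of Gfap. Their part in the result was not tested. In tissue pieces such as these, more cells of a type and more RNA per cell cannot be told apart.

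Jun was measured at 14.5, 20.9, 14.9, 15.7 and 21.8 TPM in EDA-labelled libraries, and at 13.3, 8.18, 11.8, 9.55 and 13.6 TPM in control-labelled ones, without overlap on this scale. On counts scaled by TMM, and in TPM with ENSMUSG00000119584 left out, the groups overlapped, and the fitted difference was 0.43 ± 0.38. Among the 15118 genes, 1.61% were higher in every EDA-labelled than in every control-labelled library in TPM, and 0.152% were lower in every one; 3 of the 9 genes were in the higher set and 0 in the lower. Egr1 was measured at 22.4, 10.4, 14.3, 82.7 and 32.02 TPM in EDA-labelled libraries, and at 13.1, 15.6, 9.81, 14.2 and 17.8 TPM in control-labelled ones. Its groups overlapped, replicate 4 was the highest again, and the difference of 0.99 ± 0.64 was 0.20 without replicate 4 and turned to -0.17 with the ENSMUSG00000119584 share as covariate.

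Atf3 was measured at 5.39, 3.24, 4.03, 9.28 and 3.71 TPM in EDA-labelled libraries, and at 3.49, 2.05, 1.05, 0 and 0.32 TPM in control-labelled ones. All EDA-labelled libraries but replicate 2 lay above the control-labelled range, and the difference was 1.35 ± 1.45 on counts that did not exceed 98 reads. Fosl2 had 7.16 to 17.9 TPM in EDA-labelled libraries and 3.57 to 14.0 TPM in control-labelled ones, a difference of 0.20 ± 0.45. Klf6 had 6.68 to 12.1 TPM in EDA-labelled libraries and 2.95 to 18.7 TPM in control-labelled ones, a difference of 0.35 ± 0.51. For Ier2 the difference was 0.47 ± 1.38 and for Junb it was -0.29 ± 1.37, errors far wider than the values. In all, 8 of the 9 fitted differences were above 0, with a median of 0.47, against 49.5% of all genes tested with a median of -0.01.

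**Figure D3:**
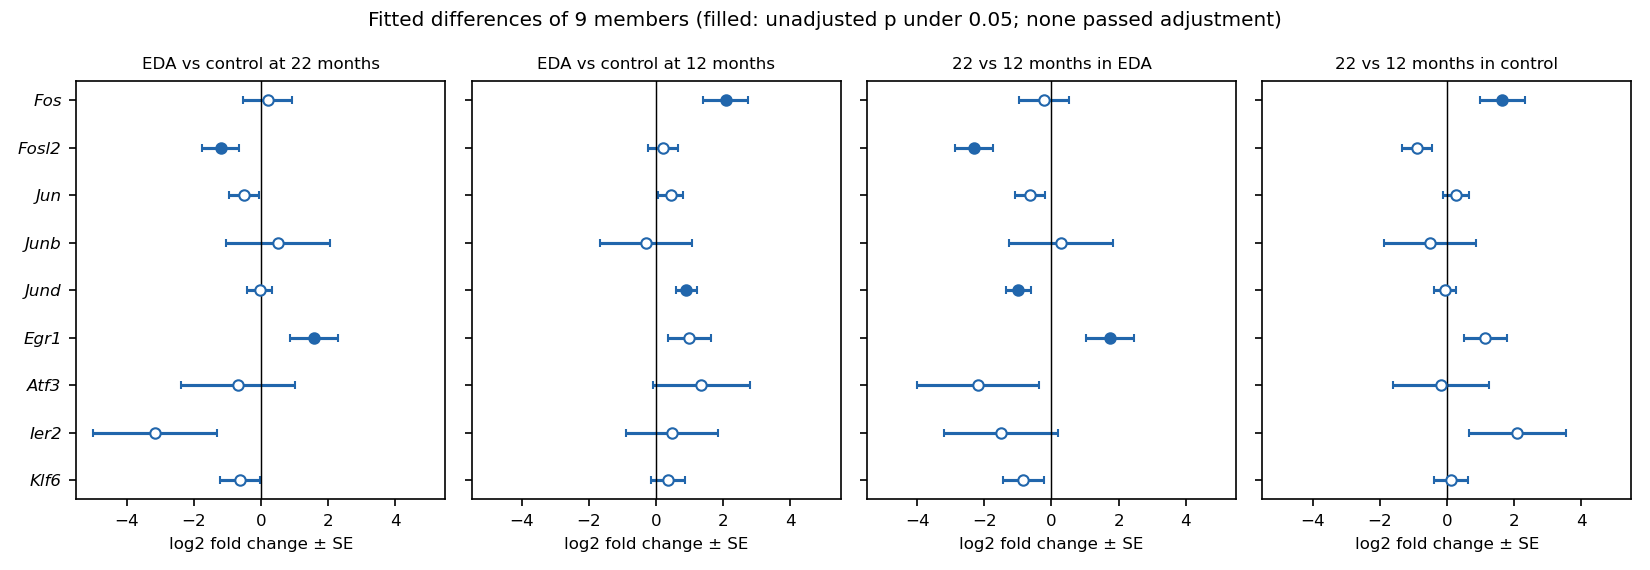
Fitted log2 differences (points) with their standard errors (bars) for the 9 genes that passed the filter, in the genotype comparison at each age and the age comparison in each label. Filled points have an unadjusted p under 0.05 by edgeR; none passed the adjusted threshold. Fos and Jund are filled at 12 months, and Fosl2 lies furthest below 0 among the filled points between ages in EDA-labelled libraries.

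At 22 months Fos and Jund levels overlapped fully between the labels, Fosl2 was lower in all 3 EDA-labelled libraries, and Egr1 was high in 1 of them. In this comparison 0% of genes were called and 3.96% (599 genes) had an unadjusted p under 0.05, which held for Fosl2 and Egr1. DESeq2 called 35 genes and limma voom 1, none of them among the 9.

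Fosl2 was measured at 1.13, 2.91 and 1.60 TPM in EDA-labelled libraries, and at 4.39, 4.81, 6.45, 4.11 and 3.33 TPM in control-labelled ones. The highest EDA-labelled library was below the lowest control-labelled one. The fitted difference was -1.20 ± 0.54, a level of 0.435 times that of the control-labelled group (unadjusted p = 0.0389, adjusted p = 1, edgeR). It was -0.82 without EDA-labelled replicate 1, the library with muscle transcripts, -0.80 without the 3 libraries that stood apart, and -0.72 with the ENSMUSG00000119584 share as covariate (unadjusted p = 0.177, 0.164 and 0.229, adjusted p = 1, 0.958 and 1, edgeR). Of all genes tested, 0.913% were lower and 1.46% higher in every EDA-labelled library in TPM; 1 of the 9 genes was in the lower set and 0 in the higher.

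Egr1 was measured at 19.5, 40.9 and 165 TPM in EDA-labelled libraries, and at 8.04, 17.9, 25.1, 71.5 and 42.7 TPM in control-labelled ones. Replicates 1 and 2 of the EDA-labelled group lay within the control-labelled range, and replicate 3 stood alone above it. The fitted difference of 1.59 ± 0.72 (unadjusted p = 0.0387, adjusted p = 1, edgeR) turned to -0.29 without EDA-labelled replicate 3. It was 2.04 without the 3 libraries that stood apart, of which replicate 3 is not one. EDA-labelled replicate 3 also had the fewest genes with 10 or more reads, 9703, against 10376 to 13048 in the other 17 libraries. All values given without the 3 libraries that stood apart keep this library. Mitochondrial transcripts made up 1.69 to 2.39% of counts in EDA-labelled libraries and 2.86 to 4.73% in control-labelled ones at this age (exact permutation test, two-sided, p = 0.0357, the smallest that the 56 splits of 3 against 5 libraries allow; adjusted p = 0.349). The part of these measures in the results was not tested.

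Fos was measured at 12.9, 10.7 and 16.8 TPM in EDA-labelled libraries, and at 10.1, 2.78, 31.1, 34.9 and 11.7 TPM in control-labelled ones. The EDA-labelled values lay within the control-labelled range, and the difference was 0.20 ± 0.73. Jund had 47.5, 42.96 and 32.4 TPM in EDA-labelled libraries and 23.6 to 58.9 TPM in control-labelled ones, a difference of -0.03 ± 0.37. Jun had 11.4, 13.3 and 5.81 TPM in EDA-labelled libraries and 3.30 to 27.7 TPM in control-labelled ones, a difference of -0.50 ± 0.45.

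Klf6 had 5.92, 5.39 and 5.25 TPM in EDA-labelled libraries, close to each other, and 1.69, 11.4, 13.03, 12.6 and 3.66 TPM in control-labelled libraries, which split to both sides of them; the difference was -0.61 ± 0.60. Atf3 had 0, 0.12 and 1.60 TPM in EDA-labelled libraries and 0, 3.22, 1.07, 2.07 and 0 TPM in control-labelled ones. With 3 libraries at 0 over both groups its difference of -0.69 ± 1.70 carried little information. For Ier2 the difference was -3.15 ± 1.85, from at most 7 reads in any EDA-labelled library, and for Junb it was 0.51 ± 1.56. In all, 3 of 9 differences were above 0, with a median of -0.50, against 46.0% of all genes with a median of -0.07.

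Between ages in EDA-labelled libraries, Fosl2, Jun, Jund, Atf3 and Klf6 were all lower in every library of 22 months than in every library of 12 months. In this comparison 0% of genes were called and 4.98% (753 genes) had an unadjusted p under 0.05, among them Fosl2, Jund and Egr1. Fosl2 gave the smallest p of any of the 9 genes in any comparison. Its 1.13, 2.91 and 1.60 TPM at 22 months stood against 11.7, 14.1, 17.9, 7.70 and 7.16 TPM at 12 months. The difference was -2.31 ± 0.57, a level of 0.201 times that at 12 months (unadjusted p = 0.000652, adjusted p = 0.961, edgeR). It was -1.93 without EDA-labelled replicate 1 of 22 months and -2.07 without the 3 libraries that stood apart (unadjusted p = 0.00607 and 0.00256, adjusted p = 0.998 and 0.855, edgeR). DESeq2, which called 43 genes here, gave Fosl2 a difference of -2.28 with an adjusted p of 0.00923, and limma voom, which called 0 genes while 1110 had an unadjusted p under 0.05, gave it an adjusted p of 0.266.

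Jund was measured at 47.5, 42.96 and 32.4 TPM at 22 months, against 73.5, 81.5, 75.5, 152 and 84.1 TPM at 12 months. The difference was -0.99 ± 0.38 (unadjusted p = 0.0162, adjusted p = 0.961, edgeR), -0.72 without replicate 4 of the 12-month group and -0.65 without the 3 libraries that stood apart (unadjusted p = 0.038 and 0.0689, adjusted p = 0.813 and 0.855, edgeR). Atf3 was measured at 0, 0.12 and 1.60 TPM at 22 months, against 5.39, 3.24, 4.03, 9.28 and 3.71 TPM at 12 months. Although the groups did not overlap, the fitted difference of -2.20 ± 1.82 had a wide error, with counts of 0 to 35 reads at 22 months and 61 to 98 reads at 12 months. It was -6.03 without replicate 3 of the 22-month group, the 1 library of that group with more than 3 reads, -1.62 without replicate 1 and -1.44 without the 3 libraries that stood apart (unadjusted p = 0.029, 0.416 and 0.486, adjusted p = 1, 1 and 0.952, edgeR). Limma voom gave -5.56 with an unadjusted p of 0.00381 and an adjusted p of 0.387. Jun was measured at 11.4, 13.3 and 5.81 TPM at 22 months, against 14.5 to 21.8 TPM at 12 months, a difference of -0.65 ± 0.45. Klf6, with 5.25 to 5.92 TPM at 22 months and 6.68 to 12.1 TPM at 12 months, differed by -0.84 ± 0.61, and its groups overlapped on counts scaled by TMM. Of all genes tested, 2.59% were lower and 1.3% higher in every EDA-labelled library of 22 months; 5 of the 9 genes were in the lower set and 0 in the higher.

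The Egr1 difference had the opposite sign and rested on 1 library. Its 19.5, 40.9 and 165 TPM at 22 months overlapped 10.4 to 82.7 TPM at 12 months, and the difference of 1.75 ± 0.72 (unadjusted p = 0.0244, adjusted p = 0.961, edgeR) turned to -0.14 without replicate 3 of the 22-month group and was 3.11 without the 3 libraries that stood apart. Fos, at 10.7 to 16.8 TPM at 22 months and 10.9 to 55.6 TPM at 12 months, differed by -0.22 ± 0.74, and by 0.74 without the 3 libraries that stood apart. Ier2 differed by -1.51 ± 1.70 and Junb by 0.28 ± 1.56. In all, 2 of 9 differences were above 0, with a median of -0.84, against 46.9% of all genes with a median of -0.06. Astrocyte markers summed to 3320 to 8940 TPM at 22 months and 6990 to 19200 TPM at 12 months in these libraries. Most of that sum was again Gfap, with medians of 5960 TPM at 22 months and 6800 TPM at 12 months. The medians of Aldoc (50.5 TPM at 22 months and 188 TPM at 12 months), S100b (23.2 and 40.6 TPM) and Slc1a2 (41.1 and 46.4 TPM) were also lower at 22 months. Those of Aqp4 (83.2 TPM at 22 months and 57.9 TPM at 12 months), Gja1 (221 and 212 TPM) and Slc1a3 (511 and 507 TPM) were not. Their part was not tested.

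Between ages in control-labelled libraries, only Fos had an unadjusted p under 0.05, in a comparison where 0% of genes were called and 3.51% (530 genes) had one. Fos was measured at 10.1, 2.78, 31.1, 34.9 and 11.7 TPM at 22 months, against 9.44, 5.29, 2.15, 1.72 and 8.64 TPM at 12 months. Replicates 3 and 4 of the 22-month group carried the highest values, replicate 2 lay among the 12-month libraries, and the groups overlapped. The difference was 1.66 ± 0.66 (unadjusted p = 0.0202, adjusted p = 1, edgeR), and 1.34 without either replicate 3 or replicate 4. Fosl2 ran in the opposite direction, with 3.33 to 6.45 TPM at 22 months and 3.57 to 14.0 TPM at 12 months, a difference of -0.90 ± 0.45 (unadjusted p = 0.0589, adjusted p = 1, edgeR). Egr1 differed by 1.15 ± 0.65, with 8.04 to 71.5 TPM at 22 months and 9.81 to 17.8 TPM at 12 months.

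Jund overlapped between these ages, at 23.6 to 58.9 TPM at 22 months and 30.3 to 53.6 TPM at 12 months, with a difference of -0.06 ± 0.32. Jun (0.28 ± 0.38), Klf6 (0.13 ± 0.51), Atf3 (-0.16 ± 1.43), Ier2 (2.10 ± 1.44) and Junb (-0.51 ± 1.37) had differences within 2 standard errors of 0. None of the 9 genes was higher or lower in every 22-month library, which held for 0.278% and 0.132% of all genes tested. DESeq2 called 23 genes here, and limma voom 0 with 680 under an unadjusted p of 0.05.

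Whether the label difference itself changed with age was tested as an interaction, which called 0% of genes, with 4.02% (608 genes) at an unadjusted p under 0.05 and none of the 9 among them; DESeq2 called 37 genes and limma voom 1, again none of the 9. The 3 smallest p-values were those of Fosl2 with -1.41 ± 0.70, Jund with -0.93 ± 0.49 and Fos with -1.88 ± 1.00 (unadjusted p = 0.0577, 0.0714 and 0.0758, adjusted p = 1 for all 3, edgeR). The appearance of Fos and Jund in the comparison at 12 months and not at 22 months is therefore not shown to be a difference between the ages. The 4 comparisons share groups: the EDA-labelled libraries of 12 months stand on one side of both the label comparison at 12 months and the age comparison in EDA-labelled libraries.

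From library to library within groups, the 10 genes did not vary as a block. Over 45 pairs, correlations of log2 CPM less the group mean across the 18 libraries gave 0 pairs with an adjusted p under 0.05 (100000 permutations within groups, two-sided). The highest Pearson r on this scale was that of Fos with Egr1, at r = 0.57 and Spearman rho = 0.57 (permutation p = 0.0359 and 0.0315, adjusted p = 0.456 and 0.355), and r = 0.59 without the 2 libraries farthest from the Fos median. Jund and Atf3 gave r = 0.53 and rho = 0.61 (permutation p = 0.0244 and 0.0131, adjusted p = 0.456 and 0.355), and r = 0.49 without 2 libraries. Of opposite sign were Junb with Egr1, at r = -0.58 and rho = -0.62 (permutation p = 0.0405 and 0.0219, adjusted p = 0.456 and 0.355), and r = -0.55 without 2 libraries.

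The genes outside the 10 whose profile was most like that of Fos, by Pearson r over the 18 libraries after removal of group means, among 7581 genes averaging 2 log2 CPM or more, were Tra2a (0.83), Etv1 (0.82), Msh6 (0.81), Rbm5 (0.80), Ncoa2 (0.80), Tmem30a (0.79), Aff3 (0.79), Rtl8a (0.79), Arhgap5 (0.78) and Tmcc1 (0.78). The libraries share their depth and composition, so these values are a description. None of the 10 is an immediate early gene of the lists used here.

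Other genes of the same response were read from the same fit as lists. At 12 months, of 42 other immediate early and early response genes tested, 28 were above 0 with a median of 0.40. None was called, 4 had an unadjusted p under 0.05 upwards and 1 downwards. Among all genes tested, 49.5% were above 0 and 4.56% had an unadjusted p under 0.05. Plk3, a stress-responsive kinase, was measured at 3.31, 6.95, 6.42, 12.7 and 3.93 TPM in EDA-labelled libraries, and at 2.68, 1.99, 0.98, 1.69 and 0.67 TPM in control-labelled ones, without overlap, a difference of 1.82 ± 0.76. Rhob, a small GTPase of the actin cytoskeleton, had 105 to 509 TPM in EDA-labelled libraries and 45.1 to 125 TPM in control-labelled ones, with a difference of 1.12 ± 0.43, and EDA-labelled replicate 4 held the highest value once more. Without that library and the other 2 that stood apart, the difference was 1.44 for Plk3 and 0.50 for Rhob (unadjusted p = 0.0928 and 0.157, adjusted p = 1 for both, edgeR), and the list had 28 of 42 above 0 with a median of 0.32. Arc, a neuronal activity gene, had at most 1.59 TPM in EDA-labelled libraries and was at 0 in all control-labelled ones, so no fold is given.

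Of 12 heat shock and chaperone genes tested at 12 months, 9 were above 0 with a median of 0.48, none was called, and 4 had an unadjusted p under 0.05, all upwards. For all genes tested the shares were 49.5% above 0 and 4.56% with an unadjusted p under 0.05. Hspa5, Hsp90aa1 and Hspa1a are named for the smallest p-values of the list. Hspa5, the chaperone BiP of the endoplasmic reticulum, was measured at 235, 240, 250, 320 and 167 TPM in EDA-labelled libraries, and at 125, 113, 110, 153 and 76.1 TPM in control-labelled ones. Its groups did not overlap, and the difference was 0.75 ± 0.26. Hsp90aa1, the inducible cytosolic Hsp90, had 1108 to 3623 TPM in EDA-labelled libraries and 643 to 1629 TPM in control-labelled ones, a difference of 0.75 ± 0.31. Hspa1a, an inducible Hsp70 with a near-identical copy in Hspa1b that reads may be split with, had 1.29 to 9.23 TPM in EDA-labelled libraries and 0 to 2.23 TPM in control-labelled ones, a difference of 2.20 ± 0.93. Without the 3 libraries that stood apart, the differences were 0.61 for Hspa5, 0.51 for Hsp90aa1 and 2.13 for Hspa1a (unadjusted p = 0.0152, 0.093 and 0.0415, adjusted p = 1 for all 3, edgeR), and 10 of the 12 genes were above 0 with a median of 0.36.

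Of 10 textbook AP-1 target genes tested at 12 months, 9 were above 0 with a median of 0.95, none was called and none had an unadjusted p under 0.05. Cd44, a hyaluronan receptor, had 5.81 to 13.9 TPM in EDA-labelled libraries and 1.18 to 10.7 TPM in control-labelled ones, with a difference of 1.11 ± 0.59. Hbegf, an EGF receptor ligand, had 20.7 to 50.6 TPM in EDA-labelled libraries and 9.96 to 49.8 TPM in control-labelled ones, with a difference of 0.79 ± 0.43. Hmox1, the haem-degrading enzyme, reached only 1.85 TPM in EDA-labelled libraries and 0.21 TPM in control-labelled ones. The kinases and factors that act upstream did not lean to one side: 11 of 26 were above 0, with a median of -0.08. Within that list Map2k7, a kinase that activates JNK, had 6.95 to 19.7 TPM in EDA-labelled libraries and 0.88 to 6.48 TPM in control-labelled ones (1.26 ± 0.65). Map3k12, the axon injury kinase DLK, had 5.71 to 14.4 TPM in EDA-labelled libraries and 0.91 to 5.41 TPM in control-labelled ones (0.78 ± 0.51). Neither overlapped between groups in deposited TPM, but both did in TPM with ENSMUSG00000119584 left out, as Jun did. Without the 3 libraries that stood apart, Map3k12 differed by 0.37 and Map2k7 by 1.25, and 14 of the 26 were above 0 with a median of 0.05. Of the 12 other AP-1 family and related genes tested 6 were above 0 with a median of 0.11. Of the 5 axon injury genes tested 3 were above 0 with a median of 0.01. The median of all genes was -0.01, with 49.5% above 0, and 1.61% of them were higher in every EDA-labelled library in TPM.

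**Figure D4:**
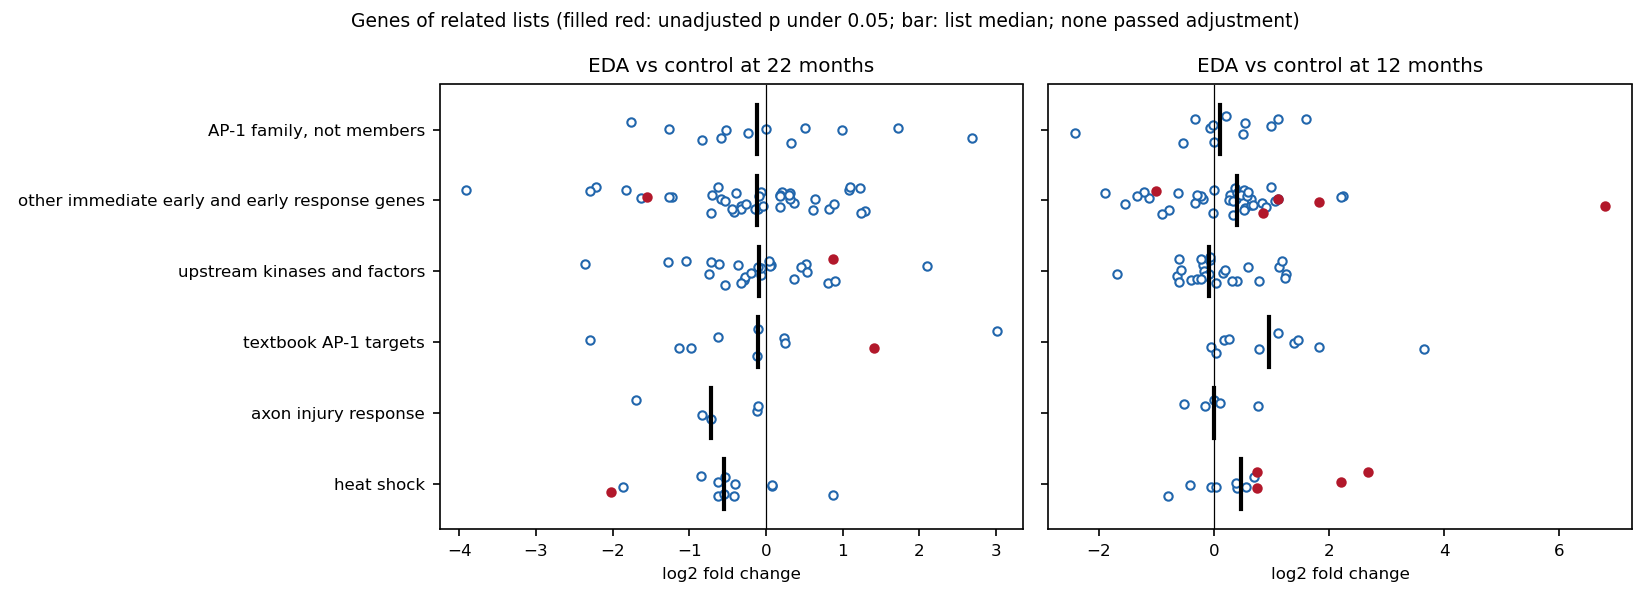
Fitted log2 differences between EDA-labelled and control-labelled libraries at 22 months (left) and 12 months (right) for genes of the 6 related lists. Each point is 1 gene, the bar is the list median, and red points have an unadjusted p under 0.05 by edgeR; none passed the adjusted threshold. Heat shock genes have a median of -0.54 at 22 months and 0.48 at 12 months.

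At 22 months all 6 lists had medians below 0, as had all genes tested, with a median of -0.07 and 46.0% above 0. The heat shock list had 3 of 12 genes above 0 with a median of -0.54, and Dnajb1, a cochaperone of Hsp70, was measured at 1.10, 1.60 and 0.42 TPM in EDA-labelled libraries, and at 2.84, 3.21, 1.86, 4.14 and 7.06 TPM in control-labelled ones. Its groups did not overlap, and the difference was -2.02 ± 0.80. The other early response genes had 17 of 42 above 0 with a median of -0.12. Among them Sik1, a kinase induced by cyclic AMP, had 13.7, 24.3 and 10.6 TPM in EDA-labelled libraries and 19.6, 26.2, 67.2, 112 and 53.3 TPM in control-labelled ones, with a difference of -1.55 ± 0.52. AP-1 targets had 4 of 10 above 0 with a median of -0.10, and Spp1, which encodes osteopontin, stood out with 1356, 258 and 582 TPM in EDA-labelled libraries and 180 to 395 TPM in control-labelled ones (1.41 ± 0.54). Its highest value came from the library with muscle transcripts, and the difference was 1.10 without the 3 libraries that stood apart (unadjusted p = 0.0522, adjusted p = 0.958, edgeR). Fosl1, the Fra-1 subunit, had 4.46, 0.37 and 16.1 TPM in EDA-labelled libraries, and at most 2.11 TPM in control-labelled ones, a difference of 2.69 ± 1.38. The axon injury list had 0 of 5 above 0 with a median of -0.71. The list of AP-1 family and related genes had 6 of 12 with -0.12 and the upstream list 11 of 26 with -0.08. No gene of any list was called.

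Between ages in EDA-labelled libraries, 1 of 12 heat shock genes was above 0, with a median of -0.84. Of 42 other early response genes 17 were, with a median of -0.43, and none of either list was called. Of all genes tested, 46.9% were above 0 and 4.98% had an unadjusted p under 0.05. Of the early response genes, 2 had an unadjusted p under 0.05 upwards, Zfp36l1 (1.85 ± 0.63) and Id2 (1.16 ± 0.49), and 3 downwards, Per1, Trib1 and Sik1 (-1.15 ± 0.51); Zfp36l1, Id2 and Sik1 are named for this comparison after their values were seen. Per1, a clock gene that is also induced as an immediate early gene, had 19.0, 22.3 and 2.79 TPM at 22 months, against 55.2 to 72.2 TPM at 12 months, without overlap (-1.79 ± 0.61). Trib1, a pseudokinase, had 16.9, 13.5 and 7.15 TPM at 22 months, against 27.5 to 36.9 TPM at 12 months, also without overlap (-1.31 ± 0.38). Srf, the serum response factor that drives Fos and Egr1, had 2.09, 10.7 and 10.2 TPM at 22 months, against 14.0 to 28.8 TPM at 12 months, again without overlap (-1.74 ± 0.64), and -1.13 without the 3 libraries that stood apart. Mrtfb, a cofactor of Srf, had 64.7, 41.8 and 165 TPM at 22 months, against 41.3 to 68.7 TPM at 12 months, with overlap and a difference of 0.86 ± 0.40. The 2.79 TPM of Per1, the 7.15 TPM of Trib1 and the 165 TPM of Mrtfb came from replicate 3 of the 22-month group. That library had the fewest genes with 10 or more reads and is not among the 3 that stood apart. Between ages in control-labelled libraries, 8 of 12 heat shock genes and 25 of 42 early response genes were above 0, with medians of 0.15 and 0.17; the difference between the labels was not tested for the lists. Among all genes the median was -0.06 between ages in EDA-labelled libraries and 0.02 in control-labelled ones. In the control-labelled comparison 51.6% of all genes were above 0.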

How the data were processed

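Optic nerve head sections were laser captured, and full-length cDNA was made with the SMART-Seq v4 kit and sequenced as read pairs, per the labels' protocols. The authors aligned reads with STAR and estimated expected counts and TPM per gene and isoform with RSEM, per the labels' protocols; the genome build is GRCm39, per the submitters' processing notes, and the annotation is not given in the sources used here. The kit does not mark strand. Deposited expected counts (3.59% not whole) were rounded to whole numbers and tested with edgeR 4.0.16 (R 4.3.3): filterByExpr by group, TMM scaling, 4 group means over all 18 libraries, robust quasi-likelihood test, Benjamini-Hochberg threshold 0.05. The standard error given after ± was derived as the absolute log2 difference over the square root of the F statistic of the test, so it is approximate. Deposited TPM gave the levels. Correlations used log2 CPM with a prior count of 2. DESeq2 1.42.0, limma 3.58.1 (voom with quality weights), other scaling, filters, covariates and left-out libraries were alternatives. Symbols, exons and chromosomes came from GENCODE M21 (GRCm38), and promoters from RefSeq.

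The members and lists were chosen with earlier results of these data known. The text names all 10 members; from each list it draws on the tested genes with the smallest unadjusted p, up to 3 in each label comparison and up to 2 in each age comparison; and it names the 10 genes most like Fos. The labels number no replicates across groups. Egr1 and Ier2 promoters were not used here.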

Additional observations from a re-analysis of the deposited data

Results flagged for a closer look

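In the EDA-labelled group at 12 months, 2 values stood apart from the other 4 libraries of their group, by the gap to the nearest library over the range of the group. Jund in replicate 4 was the highest, at 7.27 log2 CPM (152 TPM) against 6.07 to 6.42 log2 CPM in the others. Klf6 in replicate 5 was the lowest, at 2.75 log2 CPM (6.68 TPM) against 4.22 to 4.52 log2 CPM in the others. The gap was 0.712 of the range for Jund and 0.829 for Klf6. The values of 9 genes in the 3 groups of 5 libraries were examined this way, and chance alone sets apart about 1 group in 20. Replicate 4 is also the library with the highest Gfap share, 3.46%, and the lowest share of ENSMUSG00000119584, 3.26%; the part of these in the Jund value was not tested.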

How the results depend on the processing

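Of 863 alternative values of the 45 fitted differences of the 9 genes, 812 kept their sign and their side of the threshold. The count of genes called was 0 in each comparison by edgeR and moved with DESeq2 to 35 (labels at 22 months), 22 (labels at 12 months), 43 (ages in EDA-labelled libraries), 23 (ages in control-labelled libraries) and 37 (interaction). With limma voom it moved to 1, 2 and 1 (labels at 22 months, labels at 12 months, interaction), and to 1 for labels at 12 months among genes averaging 2 log2 CPM or more. Leaving out libraries in turn gave 0 to 1 for labels at 12 months, 1 without EDA-labelled replicate 4, and 0 in the other comparisons. Members called moved from 0 to 1 with DESeq2 in EDA-labelled ages, Fosl2 at -2.28. Signs turned as follows, and the cause was not tested. With limma voom the differences were, for labels at 22 months, Fos -0.74, Egr1 -0.05 and Jund 0.02; for labels at 12 months, Egr1 -0.01; for control-labelled ages, Atf3 0.34; and for the interaction, Egr1 -0.04. With the ENSMUSG00000119584 share as a covariate they were Fos -0.34 and Atf3 0.10 at 22 months, and Egr1 -0.17 and Junb 0.11 at 12 months. With Xist against Y-linked transcripts as a covariate they were Junb -0.04 for EDA-labelled ages, and Klf6 -0.01, Atf3 0.61 and Jund 0.06 for control-labelled ages. Jund at 22 months was 0.01 with no filter. With 3 libraries left out together, an alternative chosen after seeing the data, they were Atf3 0.88, Junb -0.73 and Jund 0.30 at 22 months, Fos 0.74 and Junb -1.02 for EDA-labelled ages, and Junb -0.32 for the interaction. Leaving out each library in turn gave ranges that crossed 0. For labels at 22 months these were Fos -0.76 to 0.54, Atf3 -4.52 to 0.21, Egr1 -0.29 to 2.09, Junb -0.94 to 1.05 and Jund -0.17 to 0.24. For labels at 12 months they were Ier2 -0.22 to 0.99 and Junb -1.05 to 0.32. For EDA-labelled ages they were Fos -1.18 to 0.34, Egr1 -0.14 to 2.54 and Junb -1.17 to 1.05. For control-labelled ages they were Atf3 -1.06 to 0.57, Junb -1.0 to 0.09, Jund -0.33 to 0.07 and Klf6 -0.14 to 0.36. For the interaction they were Egr1 -1.28 to 1.39 and Junb -0.65 to 1.56. The median of all genes lay at 0.12 for labels at 12 months with limma voom, against -0.01 by edgeR. Junb, Ier2 and Fosb rest on too few reads for small differences to be detectable. No paired analysis was possible because the labels number no replicates across groups.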

Other observations

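From the list of AP-1 family and related genes outside the 10, Bach1, Nfe2l2 and Maf are given here by their values. Bach1, a repressor of antioxidant genes that pairs with small Maf proteins, was measured at 67.8, 69.9, 59.1, 129 and 14.2 TPM in EDA-labelled libraries, and at 23.0, 70.3, 3.75, 24.0 and 25.8 TPM in control-labelled ones at 12 months, with overlap and a difference of 1.00 ± 0.67. Nfe2l2, which encodes the antioxidant factor Nrf2, had 7.54, 12.6 and 0.33 TPM in EDA-labelled libraries and 7.60 to 18.4 TPM in control-labelled ones at 22 months, a difference of -1.26 ± 0.67. The value of 0.33 TPM came from replicate 3, the library with the fewest genes with 10 or more reads, 9703. Maf, a large Maf factor, had 19.9 to 26.6 TPM at 22 months and 6.09 to 24.9 TPM at 12 months in EDA-labelled libraries, a difference of 0.84 ± 0.39. None passed the adjusted threshold by edgeR.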
